A study of Mus musculus with 4 samples.

Results

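The S100 proteins and the annexins were followed in 4 lines of mouse mesenchymal stem cells (MSC), stromal cells that stick to culture plastic and have the capacity to become bone, cartilage or fat cells. Members were taken by symbol, as every probe set that the platform annotation pairs with exactly 1 S100a gene, annexin gene, S100b, S100g or S100pbp. The rule found 43 probe sets of 25 genes, among 34945 probe sets of 18193 genes with 1 symbol. Of these genes 14 belong to the S100 group, S100pbp included, and 11 are annexins. Colonic MSC were grown from flushed colon and bone marrow MSC from bone marrow, 2 lines each, all from C57BL/6 mice with no further treatment. Cells were freed with collagenase, selected only by adherence to plastic, grown with 10% serum and harvested at passages 5 to 10. Amplified, biotin-labelled RNA of each line went onto 1 Affymetrix array. The labels call the arrays of a tissue biological replicates, and no label says whether the lines came from separate animals, so p-values measure the spread between these lines.

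S100 proteins are small calcium-binding proteins with a pair of EF-hand loops that mostly act as dimers, inside the cell on target proteins and, for some, outside it on receptors. Annexins bind acidic phospholipids when calcium rises and take part in membrane repair, vesicle traffic and the control of inflammation. The families meet in the complex of annexin A2 with S100a10, which joins the plasma membrane to the actin cytoskeleton and holds plasminogen at the cell surface. In stromal cells S100a4, also called fibroblast-specific protein, S100a6 (calcyclin) and the annexins A1, A2 and A5 are known as abundant products, whereas S100a8 and S100a9 are products of myeloid cells.

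Promoter bases of 5 members are shown because these genes span the patterns described here. S100a16 and Anxa8 varied most between lines of 1 tissue, and S100a6, S100a4 and Anxa2 were nearly equal in all 4 lines. Each stretch holds the 150 bases before the RefSeq start, on the plus strand of GRCm38.p6, at chr3:90537104-90537253 (S100a16), chr14:34085829-34085978 (Anxa8), chr3:90612744-90612893 (S100a6), chr3:90603620-90603769 (S100a4) and chr9:69453533-69453682 (Anxa2). Capitals mark a TATA box (TATAAA), a GC box (GGGCGG) or an AP-1 site (TGANTCA), searched on both strands with overlaps allowed.
S100a16: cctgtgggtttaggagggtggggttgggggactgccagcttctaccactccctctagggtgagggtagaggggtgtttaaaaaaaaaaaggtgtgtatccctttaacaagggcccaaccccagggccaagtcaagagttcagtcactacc
Anxa8: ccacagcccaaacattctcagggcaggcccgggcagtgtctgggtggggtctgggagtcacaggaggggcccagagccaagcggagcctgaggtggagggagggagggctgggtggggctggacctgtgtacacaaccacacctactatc
S100a6: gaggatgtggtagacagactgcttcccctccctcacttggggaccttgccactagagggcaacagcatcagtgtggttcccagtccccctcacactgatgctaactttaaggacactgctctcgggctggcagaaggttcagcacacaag
S100a4: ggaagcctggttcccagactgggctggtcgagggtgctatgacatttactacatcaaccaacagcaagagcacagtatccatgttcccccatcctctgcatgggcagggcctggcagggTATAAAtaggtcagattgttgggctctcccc
Anxa2: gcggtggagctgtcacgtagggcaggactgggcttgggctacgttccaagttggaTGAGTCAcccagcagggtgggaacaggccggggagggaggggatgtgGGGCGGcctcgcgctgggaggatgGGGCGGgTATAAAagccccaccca

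The TATA box began 31 bases before the start of S100a4 and 17 bases before that of Anxa2. The Anxa2 stretch also held 2 GC boxes and 1 AP-1 site, and no motif of the 3 was found in the stretches of S100a16, Anxa8 and S100a6. RefSeq windows reaching 250 bases before to 50 bases after a start were given for 20 of the 25 genes, 28 windows in all. S100a16 had a second start, whose bases are not shown, and its window held 1 GC box and 1 AP-1 site. A TATA box lay in 8 of these 28 windows (13.6% of the 32851 windows of all genes), a GC box in 9 (35.7% of all windows) and an AP-1 site in 3 (7.81% of all windows). A match is a run of letters and not a shown binding site.

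Array medians lay between 53.6 and 55.5 intensity units over the 4 arrays, with upper quartiles between 608 and 655. An intensity does not measure an amount of RNA that can be set against that of another probe set. All 10 stromal markers with a probe set passed the filter on low values (a mean intensity above 33.3), and the lines were not alike in them. Vimentin (Vim) and the collagen chain gene Col1a2 lay between 14901 and 16159 on the 4 arrays. The surface antigen gene Thy1 had 4516 and 9032 in colonic MSC, against 32.8 and 22.0 in bone marrow MSC (limma adjusted p = 0.0508). The growth factor receptor gene Pdgfra had 492 and 743 in colonic MSC, against 1609 and 2493 in bone marrow MSC. Thy1 was thus below 33.3 in both bone marrow lines, and Nt5e, another surface marker of MSC, ran from 27.6 to 209.

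Markers of other cell types were low in part only. Of 12 leukocyte and macrophage markers 8 passed the filter. The pan-leukocyte gene Ptprc stayed between 19.3 and 28.6, and Cd14 lay between 573 and 963. The leukocyte membrane gene Cd53 had 155 and 1333 in colonic MSC, against 14.0 and 15.7 in bone marrow MSC. The macrophage lysozyme gene Lyz2 had 150 and 590 in colonic MSC, against 1589 and 31.7 in bone marrow MSC. Cd53 was thus highest in colonic replicate 2 and Lyz2 in bone marrow replicate 1. Of 6 endothelial markers 3 passed the filter, with Pecam1 at or below 2.48 and Kdr at 91.1 and 68.9 in colonic MSC, against 31.9 and 18.5 in bone marrow MSC. The summed intensity of 6 fat cell markers was 1321 and 9050 in colonic MSC, against 8977 and 12506 in bone marrow MSC. Among them Fabp4 had 460 and 112 in colonic MSC, against 5157 and 4901 in bone marrow MSC. Lpl had 94.6 and 6536 in colonic MSC, against 125 and 2410 in bone marrow MSC. The part of these markers in the values of the S100 and annexin genes was not tested.

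The comparison asked which S100 and annexin transcripts differ between MSC of colon and of bone marrow in the same culture medium. By their brightest probe sets, the 7 brightest members, among them Anxa1, Anxa2, Anxa5, S100a4 and S100a6, were at nearly the same level in all 4 lines. The widest differences, in S100a16 and Anxa8, lay between lines of 1 tissue. In limma 0 of 19 members above the filter on low values passed an adjusted p of 0.05 (0% of the 12930 genes tested). At an unadjusted p of 0.05 the count was 0 of 19 as well (6.11% of all genes). The filter asked for a mean over the 4 arrays above the 40th percentile, an intensity of 33.3, and a gene could pass it through 1 tissue alone. The lowest adjusted p of a member was 0.893 and the highest 0.990. With 2 lines in each tissue, no exact two-sided permutation p can be smaller than 0.333, so none is printed.

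The median log2 difference, colonic minus bone marrow, was 0.06 over the 19 members and 0.01 over all genes tested. A difference of at least 1 on the log2 scale was seen in 3 of 19 members (9.53% of all genes). It was higher in colonic MSC for Anxa8 and S100a3, 2 of 19 (5.94% of all genes), and lower for S100a16, 1 of 19 (3.59% of all genes). The 2 colonic arrays lay both above or both below the bone marrow arrays in 6 of 19 members (33.7% of all genes). They lay above in Anxa1, Anxa5, Anxa6 and S100a3 (18.6% of all genes) and below in Anxa9 and Anxa13 (15.1% of all genes). Arrays of 1 tissue lay at least 2 apart on the log2 scale in 4 of 19 members (6.79% of all genes), namely S100a16, S100a1, S100a13 and Anxa8. These counts describe the members and were not tested. In such bulk RNA, fewer cells that express a gene and less RNA per cell cannot be told apart.

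**Figure D1:**
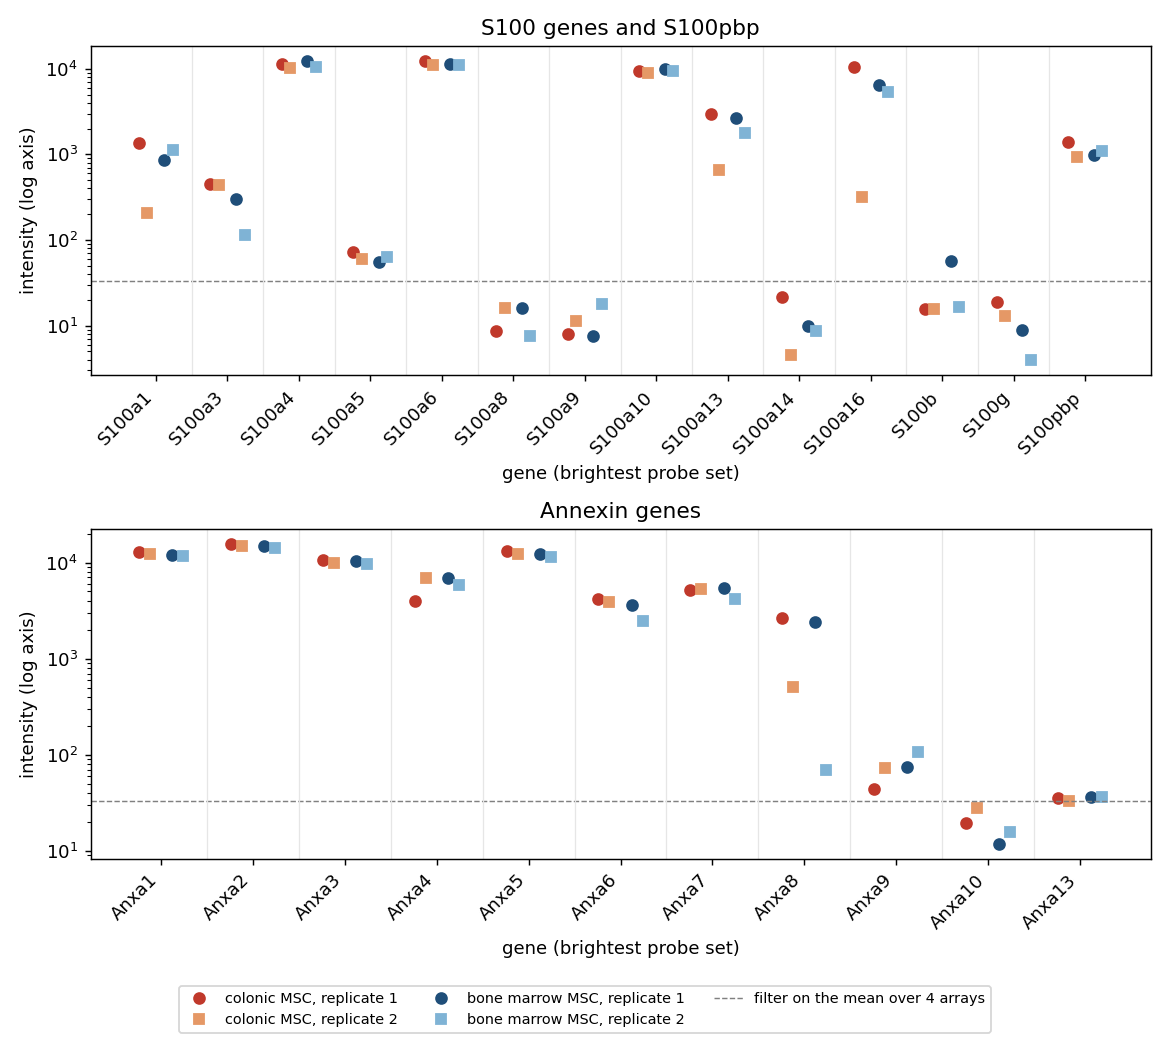
Intensity on a log axis of the brightest probe set of each of the 25 genes, S100 genes and S100pbp above and annexins below, with 1 point for each array and the filter intensity of 33.3 dashed. Colonic lines stand left of bone marrow lines. The points of Anxa1, Anxa2, Anxa3, Anxa5, S100a4, S100a6 and S100a10 nearly coincide, while S100a1, S100a13 and S100a16 are low in colonic replicate 2.

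Annexin A2, the membrane-binding partner of S100a10, had intensities of 15523 and 14727 in colonic MSC, against 14870 and 14021 in bone marrow MSC. S100a10, the subunit that links a pair of annexin A2 molecules, had 9480 and 9023 in colonic MSC, against 9944 and 9394 in bone marrow MSC. Both tissues overlapped in either gene, with log2 differences of 0.07 ± 0.07 for Anxa2 and -0.06 ± 0.09 for S100a10 (SE). The 95% confidence interval ran from -0.12 to 0.26 for Anxa2 and from -0.30 to 0.18 for S100a10. Dimmer probe sets of S100a10 lay further apart. One had 4868 and 4263 in colonic MSC, against 5793 and 4621 in bone marrow MSC, a log2 difference of -0.18. Another had 86.7 and 77.6 in colonic MSC, against 202 and 85.9 in bone marrow MSC, a log2 difference of -0.61.

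Annexin A1, a mediator of resolution in inflammation, had 13004 and 12275 in colonic MSC, against 12023 and 11780 in bone marrow MSC. Annexin A5, which binds exposed phosphatidylserine and sits in the matrix vesicles of mineralising cells, had 13331 and 12385 in colonic MSC, against 12135 and 11525 in bone marrow MSC. In both genes the colonic arrays lay above the bone marrow arrays, by log2 differences of 0.09 ± 0.07 and 0.12 ± 0.08 (SE) that did not pass limma (adjusted p = 0.970 each). Annexin A3 averaged 10197 ± 505 in colonic MSC and 10021 ± 422 in bone marrow MSC (SD, n = 2 each), and the tissues overlapped.

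S100a4 binds nonmuscle myosin and is linked to cell motility. It had 11414 and 10185 in colonic MSC, against 12349 and 10483 in bone marrow MSC. S100a6, which binds the ubiquitin ligase adaptor Cacybp, had 12199 and 11034 in colonic MSC, against 11372 and 10923 in bone marrow MSC. Replicate 1 was the higher array in both tissues for S100a4 and S100a6, as it was for Anxa1, Anxa2, Anxa3, Anxa5 and S100a10. The tissues overlapped for S100a4 and for S100a6. Their log2 differences were -0.08 ± 0.12 and 0.06 ± 0.09 (SE).

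These 7 genes had means of at least 9000, a limit set after seeing the values, and their confidence intervals stayed between -0.40 and 0.34 on the log2 scale. Across the 4 arrays 6 of the 7 varied by less than 0.25 on that scale, S100a4 being the exception with 0.28. Such a narrow range was common among bright genes, at 61.4% of the 272 genes with means of at least 9000, and less so among all genes tested (9.93%). Whether signals near the top of the range were compressed was not tested.

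**Figure D2:**
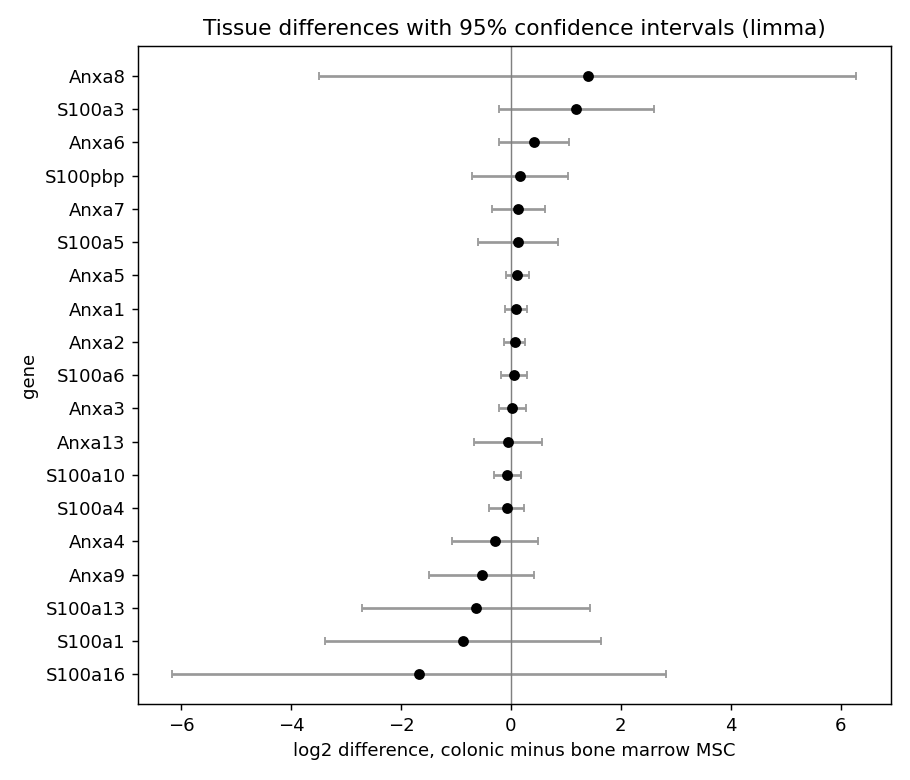
Log2 difference, colonic minus bone marrow, of the 19 members above the filter, ordered by size, with 95% confidence intervals from limma as bars. Every interval crosses 0; those of the 7 brightest genes are short, and those of S100a16 and Anxa8 are the longest.

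The annexins A4, A6, A7, A9 and A13 each differed less between tissues than between the lines of 1 tissue. Annexin A6, a membrane organiser with a doubled core, had 4164 and 3883 in colonic MSC, against 3628 and 2493 in bone marrow MSC. The groups did not overlap, the lowest array being bone marrow replicate 2, and the log2 difference was 0.42 ± 0.24 (SE, limma adjusted p = 0.957). It was 0.69 when bone marrow replicate 1 was left out, and 0.15 when bone marrow replicate 2 was. The other 3 probe sets of Anxa6 had differences of the same sign, the smallest being 0.10.

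Annexin A7, which in other cells acts in vesicle fusion, had 5138 and 5296 in colonic MSC, against 5432 and 4156 in bone marrow MSC, and the tissues overlapped. Annexin A4, an annexin of epithelia and secretory cells, had 3961 and 6825 in colonic MSC, against 6835 and 5892 in bone marrow MSC. Colonic replicate 1 was the lowest array in each of the 3 Anxa4 probe sets. In its other probe sets colonic replicate 2 was the highest, at 2654 and 1415, so that the log2 difference ranged from -0.29 to 0.24 between probe sets. Anxa7 had probe sets of both signs too, from -0.23 to 0.13. Of 9 members with more than 1 probe set above the filter, the other 7 had probe sets of 1 sign.

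The dim annexins were Anxa9, whose product lacks the usual calcium-binding sites, and Anxa13, an intestinal and renal annexin. Anxa9 had 44.4 and 73.2 in colonic MSC, against 74.3 and 106 in bone marrow MSC, a log2 difference of -0.53 ± 0.36 (SE). Anxa13 lay between 33.0 and 36.1 on the 4 arrays, with a mean of 35.2 just above the filter and colonic replicate 2 just below it. In Anxa9 both colonic lines lay below both bone marrow lines, though replicate 2 of colon and replicate 1 of bone marrow were nearly level.

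In the S100 family the widest differences between lines of 1 tissue set 1 colonic line apart from the other lines. S100a16, a widely expressed S100 protein, had 10484 in colonic replicate 1 and 316 in colonic replicate 2, against 6539 and 5328 in the bone marrow replicates. Colonic replicate 1 was thus the highest and colonic replicate 2 the lowest of the 4 arrays, with a ratio of 33.2 between them. The bone marrow lines differed by a ratio of 1.23.

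S100a13, which takes part in the non-classical export of fibroblast growth factor and interleukin, had 2960 and 653 in colonic MSC, against 2632 and 1792 in bone marrow MSC. S100a1, a regulator of calcium handling best known from heart muscle, had 1358 and 205 in colonic MSC, against 859 and 1126 in bone marrow MSC. In both genes the order of the colonic lines was that of S100a16, and colonic replicate 2 lay below each bone marrow line. The ratio between the colonic lines was 4.53 for S100a13 and 6.63 for S100a1, and that between the bone marrow lines 1.47 and 1.31.

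Between tissues the log2 differences were -1.67 ± 1.68 for S100a16, -0.63 ± 0.78 for S100a13 and -0.86 ± 0.94 for S100a1 (SE, limma adjusted p = 0.977, 0.981 and 0.979). Their intervals were wide, from -6.16 to 2.82 for S100a16. Each value depended on which colonic line was kept. Without colonic replicate 1 the differences were -4.16, -1.71 and -2.19 in the same order. Without colonic replicate 2 they were 0.83, 0.44 and 0.46, with the sign turned. These fits assume that the lone colonic array varies like the bone marrow lines, so their p-values are not given.

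Colonic replicate 2 was the lowest array in the second probe sets of S100a16 and S100a1 too. The second probe set of S100a16 had 7612 and 93.2 in colonic MSC, against 4319 and 3364 in bone marrow MSC. The second of S100a1 had 200 and 95.8 in colonic MSC, against 203 and 243 in bone marrow MSC. For S100a16 the order of the 4 arrays was that of its brighter probe set. The second S100a1 probe set spanned a narrower range, and there colonic replicate 1 lay below both bone marrow lines, whereas it was the highest array in the brighter one. The brighter S100a1 probe set carries the suffix that Affymetrix gives to probes shared by several transcripts, so its signal may not be from S100a1 alone. The second probe set of Anxa8 and that of S100a8 carry the same suffix. The brightest probe set of S100a10, the second of S100a16 and the dimmest of Anxa4 carry an x suffix, with a like limit. So do those of some listed genes, such as Lce1h.

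Colonic replicate 2 lay at least 1 log2 unit below each of the other arrays in 3 of 19 members (1.83% of all genes), a rule set after seeing the values. Colonic replicate 2 was the lowest array in the summed intestinal epithelial markers as well, whereas colonic replicate 1 lay below both bone marrow lines there, unlike in S100a16. The summed intensity of 12 such markers was 3264 and 458 in colonic MSC, against 6655 and 5597 in bone marrow MSC. The brightest of the 12 on each array was the keratin gene Krt19, with 1890 and 105 in colonic MSC, against 6223 and 5083 in bone marrow MSC. Krt20, another keratin gene, had 889 and 29.1 in colonic MSC, against 29.4 and 15.9 in bone marrow MSC. Of the 12 markers 7 passed the filter, the others of these being Cldn3, Lgals4, Krt18, Krt8 and Cdh1, which lay between 27.5 and 157. In Cldn3, Krt18 and Cdh1 colonic replicate 1 was the highest array and colonic replicate 2 the lowest, as in S100a16. Krt18, for example, had 125 and 28.3 in colonic MSC, against 45.1 and 102 in bone marrow MSC. In Krt8 colonic replicate 2 was the lowest array, and colonic replicate 1 lay below both bone marrow lines. Lgals4 had the colonic lines in the opposite order, at 42.0 and 74.1 in colonic MSC, against 115 and 116 in bone marrow MSC. The 5 below the filter, Epcam, Vil1, Muc2, Fabp2 and Cldn7, were at or below 25.6 on the 4 arrays. The part of these markers in the S100 values was not tested.

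**Figure D3:**
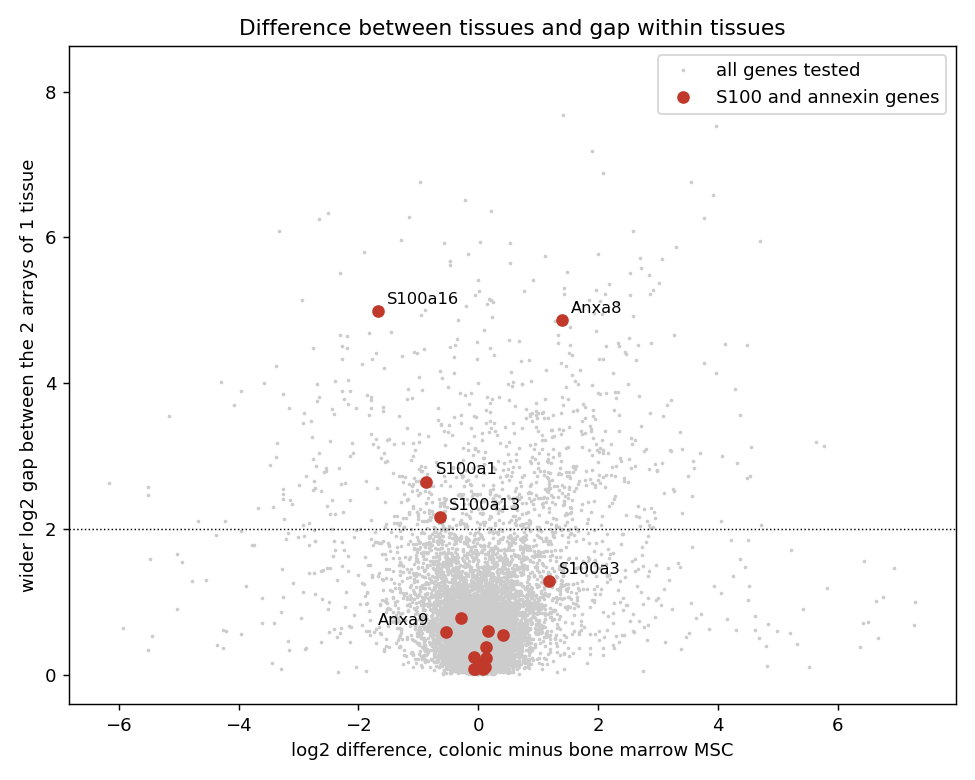
Log2 difference between tissues (colonic minus bone marrow, horizontal axis) against the wider log2 gap between the 2 arrays of 1 tissue (vertical axis), with all 12930 genes tested in grey and the 19 members in red. The dotted line marks a gap of 2; S100a16, Anxa8, S100a1 and S100a13 lie above it, and the other members below.

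On mouse chromosome 3 these genes are neighbours, within a cluster of S100 genes (RefSeq, GRCm38.p6). All 25 genes matched a RefSeq record by gene ID, and 13 of them lie on chromosome 3. S100a1 (chr3:90511034-90514330) and S100a13 (chr3:90514233-90524581) overlap at their ends, S100a14 (chr3:90526849-90528837) follows, and then S100a16 (chr3:90537254-90543151). S100a14, described mostly in epithelia, was near the floor, with 21.8 and 4.53 in colonic MSC, against 9.96 and 8.75 in bone marrow MSC.

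Values of colonic replicate 2 as low as these were not seen in the genes on either side. On the flank of S100a1 lie Chtop and Snapin. Chtop, an mRNA export factor, had 2994 and 3161 in colonic MSC, against 3458 and 4164 in bone marrow MSC. Snapin, a subunit of vesicle and lysosome transport complexes, had 3448 and 2210 in colonic MSC, against 3141 and 2102 in bone marrow MSC. On the flank of S100a16 lie S100a3, S100a4, S100a5 and S100a6, where colonic replicate 2 was the lowest array for S100a4 and stood at -0.16, -0.07 and -0.06 from the mean of the other arrays for S100a4, S100a5 and S100a6 on the log2 scale. For S100a1, S100a13 and S100a16 it stood at -2.34, -1.86 and -4.44 from that mean.

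**Figure D4:**
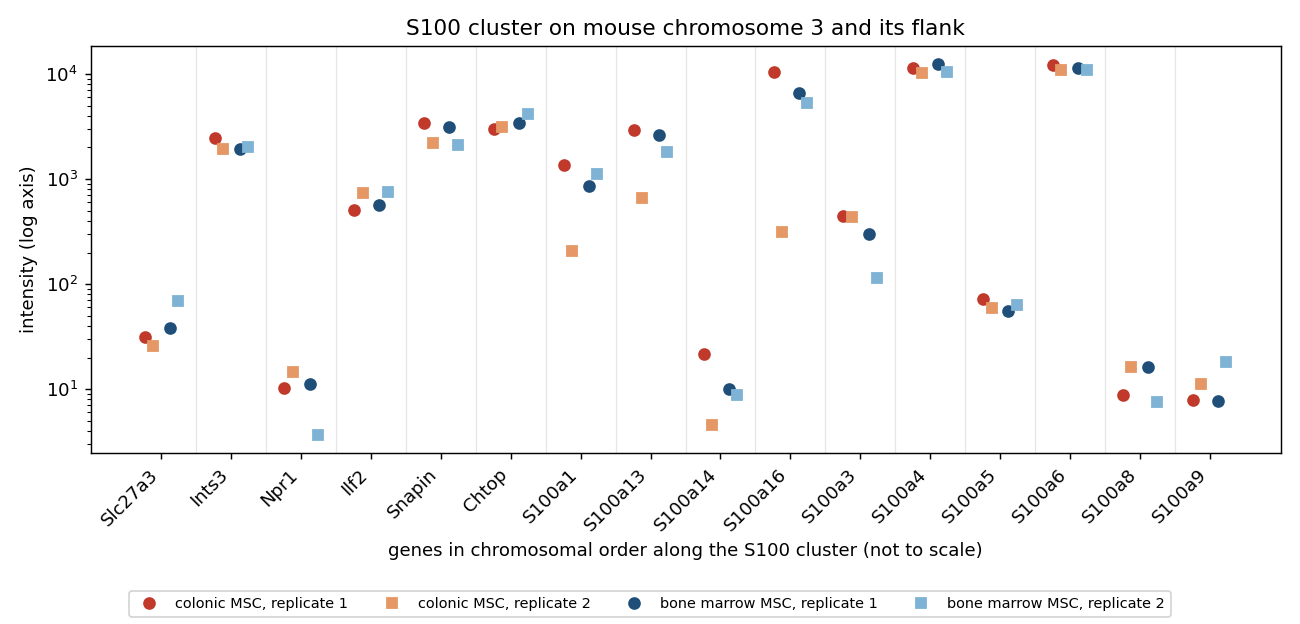
Intensity on a log axis of the 16 genes with a probe set around the S100 cluster, in chromosomal order from left to right and not to scale, with 1 point for each array. Colonic replicate 2 is low in S100a1, S100a13 and S100a16, while the 4 arrays lie close together for Chtop, S100a4 and S100a6.

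Annexin A8, an annexin known from epithelia and from acute promyelocytic leukaemia, differed between lines in both tissues. It had 2672 and 511 in colonic MSC, against 2424 and 70.1 in bone marrow MSC, with replicate 1 high and replicate 2 low in each tissue. Its second probe set had 1072 and 196 in colonic MSC, against 1058 and 24.9 in bone marrow MSC. The ratio between lines was 5.23 in colonic MSC and 34.6 in bone marrow MSC.

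The log2 difference between tissues was 1.39 ± 1.83 for Anxa8 (SE, limma adjusted p = 0.981), with a 95% interval from -3.49 to 6.28. It was 3.83 with bone marrow replicate 1 left out and -1.04 with bone marrow replicate 2 left out, so the sign depended on 1 line. Replicate numbers are names in the labels, and no label says that lines of the same number were prepared together.

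S100a3, described mostly in hair follicles, was the member with the lowest p. It had 449 and 437 in colonic MSC, against 299 and 115 in bone marrow MSC. Both colonic lines lay above both bone marrow lines, and the wider spread was among the bone marrow lines, with a ratio of 2.60. The log2 difference was 1.19 ± 0.53 (SE, 95% interval from -0.22 to 2.60), with an unadjusted p of 0.0810 and an adjusted p of 0.893 in limma. Leaving out bone marrow replicate 2 gave 0.55, and leaving out bone marrow replicate 1 gave 1.83. Bone marrow replicate 2 lay at least 1 log2 unit below each other array in S100a3 and Anxa8, 2 of 19 members (3.33% of all genes), a rule set after seeing the values. The summed intensity of 8 smooth muscle markers was 68965 and 58765 in colonic MSC, against 52423 and 35218 in bone marrow MSC, and so was lowest in bone marrow replicate 2 as well. That array was also lowest in the summed stromal (58296), leukocyte (1214) and endothelial (110) markers. It was not in the epithelial, granulocyte, glial and neuronal, and fat cell sums. In the smooth muscle sum colonic replicate 2 lay above bone marrow replicate 1, unlike in Anxa8. Bone marrow replicate 2 was the lowest array in each of these 8 genes. Cnn1, for example, had 11529 and 8477 in colonic MSC, against 8623 and 33.0 in bone marrow MSC. Des and Myh11 had 2379 and 1123 in colonic replicate 1 and at most 52.4 on the other arrays. The part of these markers in the S100a3 and Anxa8 values was not tested.

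The remaining S100 members above the filter were S100a5 and S100pbp. S100a5, an S100 protein of olfactory neurons, was dim, with 72.6 and 59.8 in colonic MSC, against 55.4 and 62.7 in bone marrow MSC. S100pbp is not an S100 protein but binds one. It averaged 1172 ± 339 in colonic MSC and 1026 ± 78.3 in bone marrow MSC (SD, n = 2 each), and the tissues overlapped. The difference of either gene was below its standard error.

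No probe set passed the filter for 6 members, namely S100a8, S100a9, S100a14, S100b, S100g and Anxa10. Their 8 probe sets lay between 1 and 56.3 on the 4 arrays. S100a8 and S100a9, which form calprotectin in neutrophils and monocytes, had at most 18.0. Of 8 granulocyte markers with a probe set 2 passed the filter, namely Mpo (myeloperoxidase) between 115 and 148 and Camp (cathelicidin) between 125 and 135. The other 6, Ngp, Csf3r, Elane, Ltf, Lcn2 and Cxcr2, were at or below 16.7. The summed intensity of 12 leukocyte and macrophage markers was 1960 and 3019 in colonic MSC, against 2958 and 1214 in bone marrow MSC.

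S100b, a protein of glia, had 15.7 and 15.8 in colonic MSC, against 56.3 and 16.4 in bone marrow MSC. Of 6 glial and neuronal markers with a probe set, Sox10, Gfap, Foxd3 and Elavl4 were at or below 32.7 on the 4 arrays. The neuronal genes Uchl1 and Tubb3 passed the filter. Uchl1 had 814 and 100.2 in colonic MSC, against 87.0 and 91.5 in bone marrow MSC, and Tubb3 had 328 and 142 in colonic MSC, against 163 and 162 in bone marrow MSC. Bone marrow replicate 1, the highest array for S100b, was not the highest for either. That array was the highest for Gfap and Foxd3, at 13.3 and 30.4 and so below the filter, and not for Sox10 and Elavl4. The part of these markers in the S100b values was not tested. S100g, a calcium-transport protein of gut and kidney, had 19.0 and 12.9 in colonic MSC, against 8.77 and 3.93 in bone marrow MSC, and was below the filter. Anxa10, an annexin of the stomach, did not exceed 28.1. No detection calls were used, so a value near the floor is not a shown absence. The symbols S100a11 and Anxa11 occur only in probe sets paired with several symbols and are not described here.

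Binding partners and receptors of the families included Pla2g4a, Plaur and Bsg as the genes lowest in p. Of 25 listed genes 19 passed the filter, 0 at an adjusted p of 0.05, and at an unadjusted p of 0.05 in limma 2 were higher (3.41% of all genes) and 1 lower (2.7% of all genes). Pla2g4a, the cytosolic phospholipase A2 that S100a10 and annexins can inhibit, had 6671 and 7609 in colonic MSC, against 2358 and 2906 in bone marrow MSC, a log2 difference of 1.44 ± 0.18 (SE, adjusted p = 0.159). Plaur, the urokinase receptor, had 4558 and 3331 in colonic MSC, against 2254 and 2164 in bone marrow MSC, with an adjusted p of 0.640 in limma. Bsg (basigin), a receptor for S100a9, had 5905 and 6278 in colonic MSC, against 7744 and 8526 in bone marrow MSC.

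Dysf (dysferlin), a membrane repair protein that binds annexins, had 858 and 828 in colonic MSC, against 610 and 331 in bone marrow MSC. Its log2 difference of 0.89 ± 0.41 (SE) did not pass limma (adjusted p = 0.913). Ahnak, a giant scaffold that binds the annexin A2 complex, lay between 9697 and 10067 on the 4 arrays. Ager, the receptor for advanced glycation products and several S100 proteins, did not exceed 63.4.

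Other calcium-binding proteins, mostly with EF hands, had 22 of 32 listed genes above the filter and a median log2 difference of 0.31, against 0.01 over all genes tested. Of the 22, 0 passed an adjusted p of 0.05 in limma, while 5 were higher (3.41% of all genes) and 0 lower (2.7% of all genes) in colonic MSC at an unadjusted p of 0.05. Ncs1, a neuronal calcium sensor, had 2586 and 2222 in colonic MSC, against 1402 and 1241 in bone marrow MSC. Gca (grancalcin) had 305 and 357 in colonic MSC, against 137 and 148 in bone marrow MSC. Efhd2 (swiprosin) had 5935 and 6291 in colonic MSC, against 4651 and 3421 in bone marrow MSC, so that all 3 were higher in both colonic lines than in both bone marrow lines. Nucb1 (nucleobindin) had 4979 and 6000 in colonic MSC, against 4047 and 3517 in bone marrow MSC. The smallest adjusted p of the list was 0.633, and the median over the 9 S100 members above the filter was -0.06.

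Genes of the epidermal differentiation complex, which lies near the S100 cluster and encodes proteins of the cornified envelope, were examined next. Of 48 listed genes of the complex and the flank 17 passed the filter, 0 at an adjusted p of 0.05 in limma. At an unadjusted p of 0.05, 2 were higher (3.41% of all genes) and 0 lower (2.7% of all genes). Sprr1a, a small proline-rich envelope protein, had 1229 and 1335 in colonic MSC, against 33.2 and 31.5 in bone marrow MSC, with an adjusted p of 0.0508. Lor (loricrin) had 69.7 and 56.4 in colonic MSC, against 30.5 and 31.0 in bone marrow MSC. In both genes the colonic arrays lay above the bone marrow arrays. Slc27a3, a fatty acid transport protein gene on the flank, had 31.3 and 26.0 in colonic MSC, against 38.5 and 69.3 in bone marrow MSC.

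Colonic replicate 1 lay at least 1 log2 unit above each of the other arrays in 6 of these 17 genes (3.32% of all genes), a rule set after seeing the values. Lce1h, a late cornified envelope gene, had 2817 and 23.0 in colonic MSC, against 12.9 and 7.22 in bone marrow MSC. Ivl (involucrin), named after its values were seen, had 750 and 39.2 in colonic MSC, against 27.4 and 45.5 in bone marrow MSC. Lce1h and Ivl thus set colonic replicate 1 above the other 3 lines, whereas for Sprr1a colonic replicate 2 was the highest array. For S100a16, S100a1 and S100a13 it was colonic replicate 2 that lay below the other 3 lines.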

How the data were processed

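The authors deposited linear intensities of 45037 probe sets, beside 64 array controls that were left out; the linear scale was read from the values. How the authors summarised probes, corrected background and scaled arrays is not given in the sources used here. Medians of the arrays lay within 0.04 on the log2 scale, so the deposited scaling was kept. To each intensity 13.6 was added, which is 0.25 of the overall median of 54.5, before log2 was taken. A log2 difference understates the ratio for dim genes. The probe set with the highest mean above the filter stood for its gene.

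Tissues were compared over 12930 genes with limma 3.58.1 in R 4.3.3 (lmFit, eBayes with an intensity trend, 2 residual and 2.46 prior degrees of freedom), two-sided, adjusted by Benjamini and Hochberg. The number of arrays limits the precision. The procedure was tested on simulated data.

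The members and lists were chosen with earlier results of these data known. Members named in full were to have a difference of at least 0.75, an unadjusted p below 0.05 or lines of 1 tissue 4-fold apart, and values of the others were added afterwards. Genes outside the families are those lowest in p in each list, except Snapin, Chtop, Ahnak, Ager, Ivl and most cell type markers, picked with values in view. Alternatives tried were quantile normalization, a pseudocount of 1, no filter, the mean of probe sets, each probe set separately, no intensity trend, the replicate block and each array left out. Promoters and positions are RefSeq, GRCm38.p6.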

Additional observations from a re-analysis of the deposited data

How the results depend on the processing

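The members' count at an adjusted p of 0.05 stayed 0 under quantile normalization, a pseudocount of 1, no filter, the mean of probe sets, each probe set separately, no intensity trend and the replicate block. With 1 array left out it ranged from 0 to 1. At an unadjusted p of 0.05 leaving out 1 array gave between 0 and 3 members higher and between 0 and 3 lower, and no filter gave 1 higher, S100g. Over the whole table the count at an adjusted p of 0.05 was 13 with quantile normalization, 10 with a pseudocount of 1, 6 with no intensity trend and from 0 to 39 with 1 array left out; at an unadjusted p it was 1356 with each probe set separately, where more features are tested, 954 with the replicate block, and from 533 to 1409 with 1 array left out.

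Signs turned in 4 of 133 values under the other settings, namely Anxa3 (-0.0305) and S100a6 (-0.0011) with quantile normalization and Anxa4 (0.0330) and Anxa7 (-6.35e-05) with the mean of probe sets. With 1 array left out they turned in 12 of 76 values. The log2 differences then ranged from -4.16 to 0.83 for S100a16, from -2.19 to 0.46 for S100a1, from -1.71 to 0.44 for S100a13, from -1.04 to 3.83 for Anxa8, from -0.68 to 0.10 for Anxa4, from -0.0584 to 0.327 for Anxa7, from -0.0255 to 0.0753 for Anxa3, from -0.196 to 0.0404 for S100a4, from -0.0145 to 0.130 for S100a6 and from -0.13 to 0.46 for S100pbp. The cause was not tested. Deviations of same-numbered arrays from their tissue mean correlated with r = 0.10 over genes, which are not independent, and with 2 pairs the numbers do not show a pairing.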
